A study of Mus musculus with 18 samples.

Results

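Acot1 and Acot2 encode acyl-CoA thioesterases, enzymes that split a fatty acyl-CoA into a free fatty acid and coenzyme A. They were followed here with 7 other members of the Acot family, Acot3, Acot4, Acot7, Acot8, Acot9, Acot11 and Acot13, taken by name from the 35551 mouse gene IDs of the deposited tables. The rule uses no measured value, but the family was chosen with earlier results of these data known. All 9 genes were found by gene symbol, 1 ID each. The cells were AML12, a non-transformed mouse hepatocyte line derived from mice carrying a human TGF-alpha transgene, synchronized in their circadian rhythm and given either DMSO as solvent or pemafibrate (Pema), a drug that activates PPARα, a nuclear receptor, selectively. Exposure covered 1 of 3 windows. T0 to T24 was a 24 h exposure, which the study used as its reference. T14 to T20 was a 6 h exposure set to mimic the day, and T24 to T30 a 6 h exposure set to mimic the night. The 6 groups had 3 libraries each, replicates 1 to 3, so there were 18 libraries and 9 Pema and DMSO pairs of the same window and replicate number. The labels give no dose. The comparison asks how these genes answered the drug in each window. In the main drug fits the level of each pair was taken out first. Their p-values thus cover only how far the Pema and DMSO differences varied among pairs. P-values from fits without that step cover the spread from library to library. Either spread may be technical, since no label calls the replicates separate cultures.

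Acyl-CoA is the activated form in which fatty acids enter oxidation, lipid synthesis and elongation, and thioesterases act against the acyl-CoA synthetases that make it. The type I enzymes come from a cluster of related genes and differ mainly in where they work: Acot1 in the cytosol, Acot2 in the mitochondrial matrix, Acot3 and Acot4 in peroxisomes. The type II enzymes (Acot7, Acot8, Acot9, Acot11 and Acot13) have an unrelated fold. In liver, Acot1 and Acot2 are known targets of PPARα and rise with fasting and with fibrate drugs.

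Acot1 and Acot2 are close paralogs that lie next to each other on mouse chromosome 12, so it matters how far reads can be told apart between them. In the principal GENCODE M21 transcripts (GRCm38), the coding sequences had 1257 and 1359 bases, and 95.55% of 1236 aligned bases were identical. Acot1 was less like its neighbours, at 84.01% with Acot3, 83.81% with Acot5, 76.62% with Acot4 and 75.28% with Acot6. The clearest difference is at the start, where Acot2 carries 123 coding bases (41 codons) that aligned to a gap in Acot1, the region in which a mitochondrial signal of Acot2 is known to lie. The first 180 coding bases of Acot2 and the first 57 of Acot1 are shown, with the bases that Acot1 lacks in capitals.
Acot2, coding bases 1 to 180: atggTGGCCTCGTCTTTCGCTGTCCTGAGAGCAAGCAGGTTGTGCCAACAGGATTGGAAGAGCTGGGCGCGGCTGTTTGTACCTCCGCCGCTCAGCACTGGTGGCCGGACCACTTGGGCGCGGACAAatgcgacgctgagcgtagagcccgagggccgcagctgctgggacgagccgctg
Acot1, coding bases 1 to 57: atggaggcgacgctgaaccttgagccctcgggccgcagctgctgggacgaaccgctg
Beyond that start the 2 genes diverge in short patches. The 120-base stretch with the most differences, 14 of them, is shown for both, with the differing bases in capitals.
Acot1, coding bases 767 to 886: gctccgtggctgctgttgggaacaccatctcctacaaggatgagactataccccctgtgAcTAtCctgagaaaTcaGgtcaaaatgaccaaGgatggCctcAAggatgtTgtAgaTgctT
Acot2, coding bases 890 to 1009: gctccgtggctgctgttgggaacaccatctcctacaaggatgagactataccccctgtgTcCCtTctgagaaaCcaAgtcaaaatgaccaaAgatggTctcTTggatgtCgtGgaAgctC
The next 273 bases are the longest identical run (887 to 1159 in Acot1, 1010 to 1282 in Acot2). Of the 31-base windows along the Acot1 transcript, 59.95% were found in no transcript of another gene and 28.77% were shared with Acot2. For Acot2, 62.47% were unique and 29.78% were shared with Acot1. With 100-base windows the unique shares were 78.09% and 82.88%. Within the coding sequences alone, fewer of the 31-base windows were unique, 31.13% for Acot1 and 44.32% for Acot2. By 31-base windows most of each whole transcript can thus be told apart by sequence, but most of each coding part cannot. The division of shared reads between the 2 genes was estimated by the authors' counting. By 31-base windows Acot4 was 90.7% unique, Acot7, Acot8 and Acot13 were 100% unique, and Acot9 was 63.12% unique, sharing 36.88% with Acot10, which was listed at 0 in every library.

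The values are normalized signal per gene, estimated counts that the authors scaled within each window. Totals ran from 31461977 to 33884634 per library, and read depth before scaling is unknown. Of 10 hepatocyte marker genes 8 had a mean of at least 10 (Apoa1 and Tdo2 did not), with Alb at 3124 to 7190 and Hnf4a at 5476 to 9662. The same minimum mean was reached by 5 of 6 genes of cholangiocytes or progenitors, among them Cftr at 6.74 to 27.1 and Krt19 at 5793 to 12788, and not by Epcam. Of 7 fibroblast genes 4 reached it, with Acta2 at 2.76 to 34.1, Col1a1 at 11.3 to 78.3 and Vim at 24849 to 33956, and Col1a2, Col3a1 and Pdgfrb did not. Of 6 macrophage genes 3 reached it, Csf1r at 137 to 269, Cd68 at 29.3 to 60.7 and Ptprc at 27.6 to 58.5. Marco did not, and Adgre1 and Clec4f were at 0 in all 18 libraries. Of 5 endothelial genes 1 reached it, Pecam1 at 7.92 to 32.4, and Kdr, Cdh5, Stab2 and Tek did not. The macrophage and endothelial markers summed to 206 to 362 and 9.87 to 32.4. The summed levels of each list covered similar ranges in the DMSO and Pema libraries (hepatocyte 55337 to 71344 and 53754 to 75729).

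Acot1, the cytosolic enzyme, rose by 1.58 to 1.78-fold in each of the 3 windows. In T0 to T24 the DMSO libraries held 2403, 2429 and 1528 (replicates 1 to 3) and the Pema libraries 4357, 4052 and 2836. In T14 to T20 they held 2164, 2626 and 1807 against 3970, 4033 and 2781, and in T24 to T30 2804, 3098 and 2065 against 4768, 4667 and 3181. Every Pema library was above every DMSO library of its window, as for 1.61%, 1.82% and 2.08% of all genes tested in the 3 windows, and replicate 3 was lowest of its group throughout. The group means were 2120 ± 513 and 3748 ± 805 in T0 to T24, 2199 ± 410 and 3595 ± 706 in T14 to T20, and 2656 ± 533 and 4205 ± 888 in T24 to T30 (SD, n = 3 each). The within-pair folds ran from 1.51 to 1.86 with a median of 1.67, a narrower span than that of the levels. In bulk RNA, more signal per cell and a larger share of cells with the signal cannot be told apart.

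Acot2, the mitochondrial enzyme, was present at a lower level and was higher with Pema in all 9 pairs, as were 0.483% of all genes tested. In T0 to T24 the DMSO libraries held 343, 249 and 180 and the Pema libraries 627, 507 and 353. In T14 to T20 they held 253, 235 and 183 against 504, 393 and 318, and in T24 to T30 325, 305 and 210 against 608, 464 and 316. The groups did not overlap in the first 2 windows, as for 1.61% and 1.82% of all genes tested in that direction. In T24 to T30 they did, because Pema replicate 3 (316) was below DMSO replicate 1 (325). The group means were 257 ± 82.1 and 496 ± 137, 224 ± 36.2 and 405 ± 94.0, and 280 ± 61.5 and 463 ± 146 (SD, n = 3 each) in the 3 windows in that order. Folds within pairs ran from 1.51 to 2.04, with a median of 1.83.

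**Figure D1:**
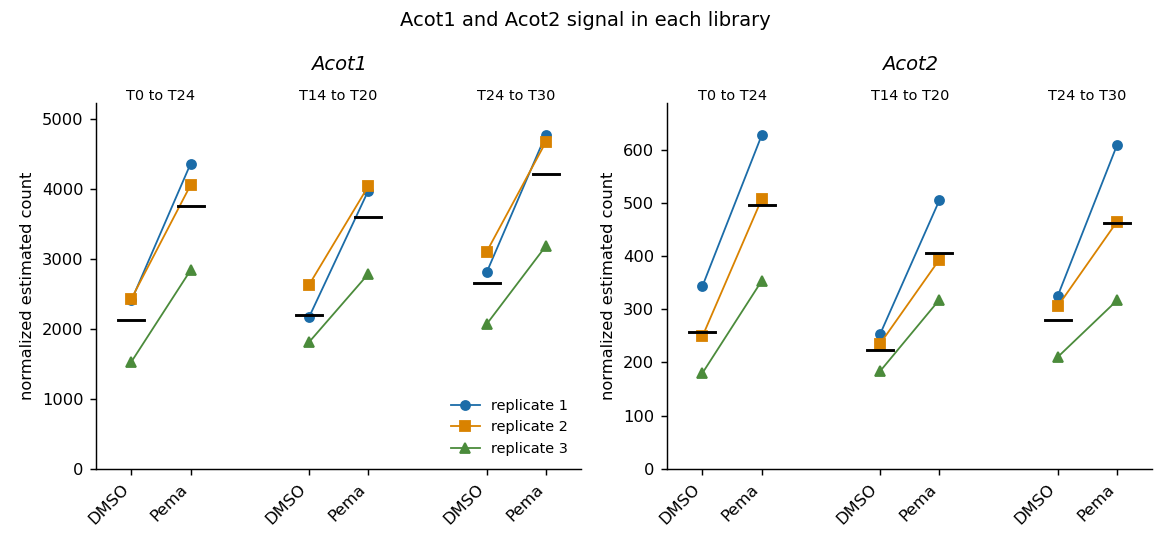
Normalized estimated count (y axis, from 0) of Acot1 and Acot2 in each of the 18 libraries by window and treatment, with lines joining Pema and DMSO libraries of the same replicate number and black bars at the group means. All 18 lines rise from DMSO to Pema, and replicate 3 is the lowest library of each group.

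The effect was tested with limma on log2(value + 1), with the replicate number as a block and Benjamini-Hochberg adjustment over all genes with a mean of at least 10. Fold changes are on that scale. Acot1 rose by 0.83 ± 0.05 (log2, SE) in T0 to T24 (adjusted p = 0.0024), by 0.71 ± 0.06 in T14 to T20 (adjusted p = 0.020) and by 0.66 ± 0.05 in T24 to T30 (adjusted p = 0.013). Acot2 rose by 0.95 ± 0.08 in T0 to T24 (adjusted p = 0.013). Its difference was 0.84 ± 0.09 in T14 to T20 (adjusted p = 0.0505) and 0.70 ± 0.09 in T24 to T30 (adjusted p = 0.18), neither of which passed the threshold of 0.05. Thus 2 of the 7 family members tested were called higher in T0 to T24, where 0.0525% of all genes tested were (7 of 13325). In T14 to T20 it was 1 of 7, beside 0.0303% of all genes (4 of 13210), and in T24 to T30 1 of 7, beside 0.0378% (5 of 13231). No member was called lower in any window, where 0%, 0.00757% and 0% of genes were. Without replicate 2 the Acot1 call in T24 to T30 (adjusted p = 0.106) and the Acot2 call in T0 to T24 (0.107) were lost, and over all settings run these adjusted p-values ranged from 0.00080 and 0.00045 to 0.9999. Within windows, no call of either gene held without the filter on low values or without the variance trend.

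With 1 effect fitted to all 9 pairs, Acot1 rose by 0.73 ± 0.04 (95% interval 0.65 to 0.81, 1.66-fold, adjusted p = 2.7e-07) and Acot2 by 0.83 ± 0.05 (0.71 to 0.95, 1.78-fold, adjusted p = 2.0e-06). By p they ranked 1 and 5 of 13258 genes. The fit called 2 of 7 members higher, and 0.181% of all genes (24 of 13258). Both genes were higher in all 9 pairs, which 0.483% of genes were. These calls rest on the block: without it the adjusted p was at least 0.9999 for both genes in every window, where it called 0 of all genes, and 0.076 and 0.135 over all windows, where it called 2 genes (0.0151%). Pairs of 1 replicate number in different windows may not be independent, and with windows averaged within each number (n = 3) the limma adjusted p was 0.00037 for Acot1 and 0.0011 for Acot2.

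**Figure D2:**
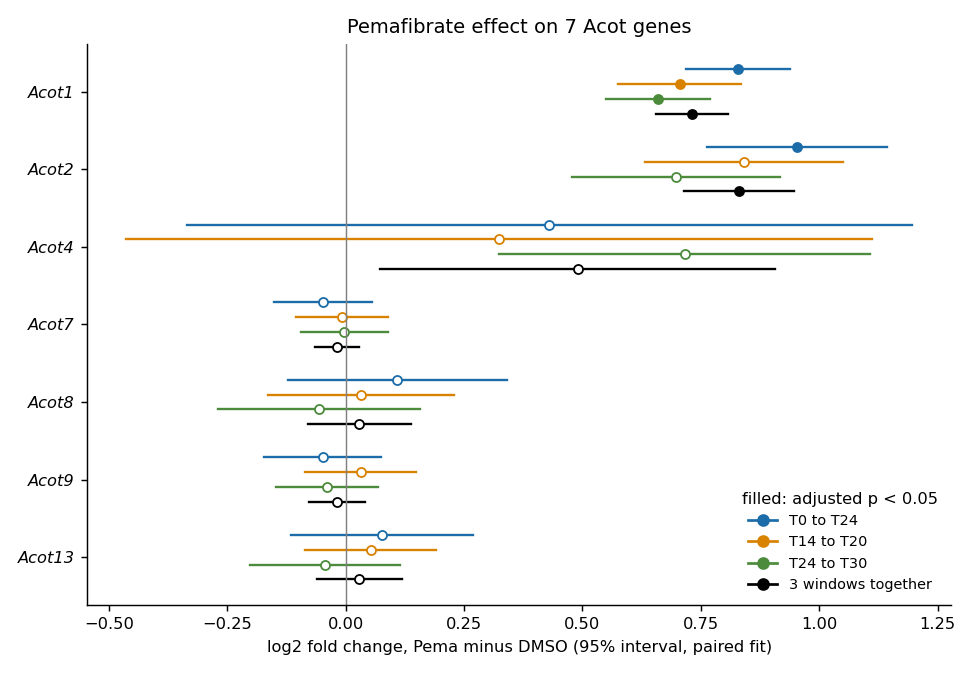
Log2 fold change of Pema over DMSO (x axis) for the 7 tested Acot genes, with 95% intervals from the paired fit, in each window and over the 3 windows together (filled symbols: adjusted p under 0.05). Acot1 and Acot2 lie between 0.66 and 0.95 in every fit, and the intervals of Acot7, Acot8, Acot9 and Acot13 all include 0.

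The size of the drug effect was compared between windows in a fit of all 18 libraries. T0 to T24 differs from the 6 h windows in start and harvest time as well as in exposure length. These cannot be told apart in the comparisons with it. For Acot1 the effect in T14 to T20 exceeded that in T24 to T30 by 0.05 (log2, 95% interval -0.13 to 0.22), and for Acot2 by 0.14 (-0.12 to 0.41). The 24 h effect exceeded the T14 to T20 effect by 0.12 (-0.05 to 0.30) for Acot1 and by 0.11 (-0.15 to 0.38) for Acot2. Against T24 to T30 the 24 h effect was 0.17 higher for Acot1 (-0.002 to 0.34, unadjusted p = 0.053, adjusted p = 0.618) and 0.25 higher for Acot2 (-0.01 to 0.52, unadjusted p = 0.057, adjusted p = 0.619). None of these differences passed, and the intervals leave room for day and night effects that differ by up to 0.22 for Acot1 and 0.41 for Acot2. By limma 0 of 7 members and 0 of 13258 genes (0%) were called in each of the 3 comparisons. An unadjusted p under 0.05 was reached by 1225, 654 and 1057 genes (9.24%, 4.93% and 7.97%), none of them a member. The DMSO levels themselves, such as the Acot1 means of 2120, 2199 and 2656, come from tables that were normalized separately and were not tested against each other.

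Because shared reads could be assigned to either paralog, the sum and the ratio of Acot1 and Acot2 were examined. The sum rose by 0.84 ± 0.04 in T0 to T24, 0.72 ± 0.06 in T14 to T20 and 0.66 ± 0.05 in T24 to T30 (log2, SE, limma adjusted p = 0.0014, 0.017 and 0.015). Over all windows it rose by 0.74 ± 0.04 (adjusted p = 2.5e-07, and 0.073 without the block). Acot2 made up 8.22% to 12.5% of the summed signal in the DMSO libraries (median 9.30%) and 8.88% to 12.6% in the Pema libraries (median 11.1%). The log2 ratio of Acot2 to Acot1 moved up within 8 of 9 pairs, by 0.099 ± 0.097 on average (SD, n = 9 pairs, exact two-sided sign-flip permutation p = 0.0195, where 0.0039 is the smallest possible). The exception was replicate 3 of T24 to T30, at -0.03, and the largest shift was replicate 2 of T0 to T24, at 0.28. The shift did not hold at the 0.05 level without T0 to T24 (0.087, exact p = 0.094), without T14 to T20 (0.081, exact p = 0.16), or without replicate 1 (0.105) or replicate 2 (0.079, exact p = 0.094 each). With the 3 replicate numbers as units it was 0.099 ± 0.036 (SD), and the exact p of 0.25 is the smallest that 3 units allow.

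**Figure D3:**
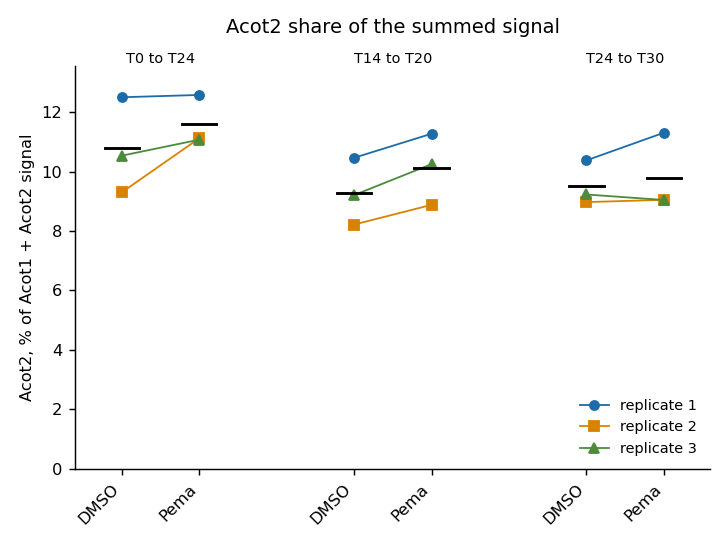
Acot2 as a percentage of the summed Acot1 and Acot2 signal (y axis, from 0) in each of the 18 libraries, lines joining pairs of the same replicate number and black bars at the group means. The share stays between 8.22% and 12.6%, and 8 of the 9 lines rise from DMSO to Pema.

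Acot4, a peroxisomal enzyme of the same cluster, was the least abundant of the tested members and the most variable. In T24 to T30 its DMSO libraries held 57.4, 44.0 and 44.8 and its Pema libraries 96.9, 64.4 and 82.5, so the groups did not overlap there, as for 2.08% of genes in that direction. In T0 to T24 they held 78.3, 59.4 and 29.0 against 78.4, 51.6 and 83.0, and in T14 to T20 41.3, 76.8 and 30.8 against 95.3, 46.5 and 43.8, with overlapping groups in both. The difference in T24 to T30 was 0.72 ± 0.17 (log2, SE, limma unadjusted p = 0.0034, adjusted p = 0.564). It was 0.43 ± 0.33 in T0 to T24 and 0.32 ± 0.34 in T14 to T20, and 0.49 ± 0.19 over all windows (95% interval 0.07 to 0.91, adjusted p = 0.70). The value was higher with Pema in 7 of 9 pairs, and none of the fits called the gene. Leaving out replicate 3 turned the T0 to T24 value to -0.10, and leaving out replicate 1 turned the T14 to T20 value to -0.11. Acot3, another peroxisomal member, was listed at 0 in all 18 libraries. The cluster genes Acot5 (0 in all) and Acot6 (0.14 ± 0.16 over all windows, adjusted p = 0.93) were not called either.

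The type II members showed no called difference in any window. Acot7, a cytosolic enzyme best known from brain, held between 2187 and 3073 in the 18 libraries and differed by -0.02 ± 0.02 over all windows (log2, SE, 95% interval -0.07 to 0.03). Acot9, a mitochondrial enzyme, held 1288 to 1962 and differed by -0.02 ± 0.03 (-0.08 to 0.04). For Acot13, also called Them2 and found at mitochondria, the range was 579 to 881 and the difference 0.03 ± 0.04 (-0.06 to 0.12). Acot8, a peroxisomal enzyme, held 259 to 325 and differed by 0.03 ± 0.05 (-0.08 to 0.14). These intervals lie below the lower bounds for Acot1 and Acot2, 0.65 and 0.71. Pema was above DMSO in 4, 3, 6 and 5 of the 9 pairs of Acot7, Acot9, Acot13 and Acot8. Acot11, known as an enzyme of brown fat, had a median of 3.56 and a highest value of 18.4, was at 0 in 2 libraries and stayed under the minimum mean of 10 in every window. Acot3 and Acot11 were therefore not tested. Across the 7 tested members the median difference over all windows was 0.03, and across all genes it was -0.002.

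**Figure D4:**
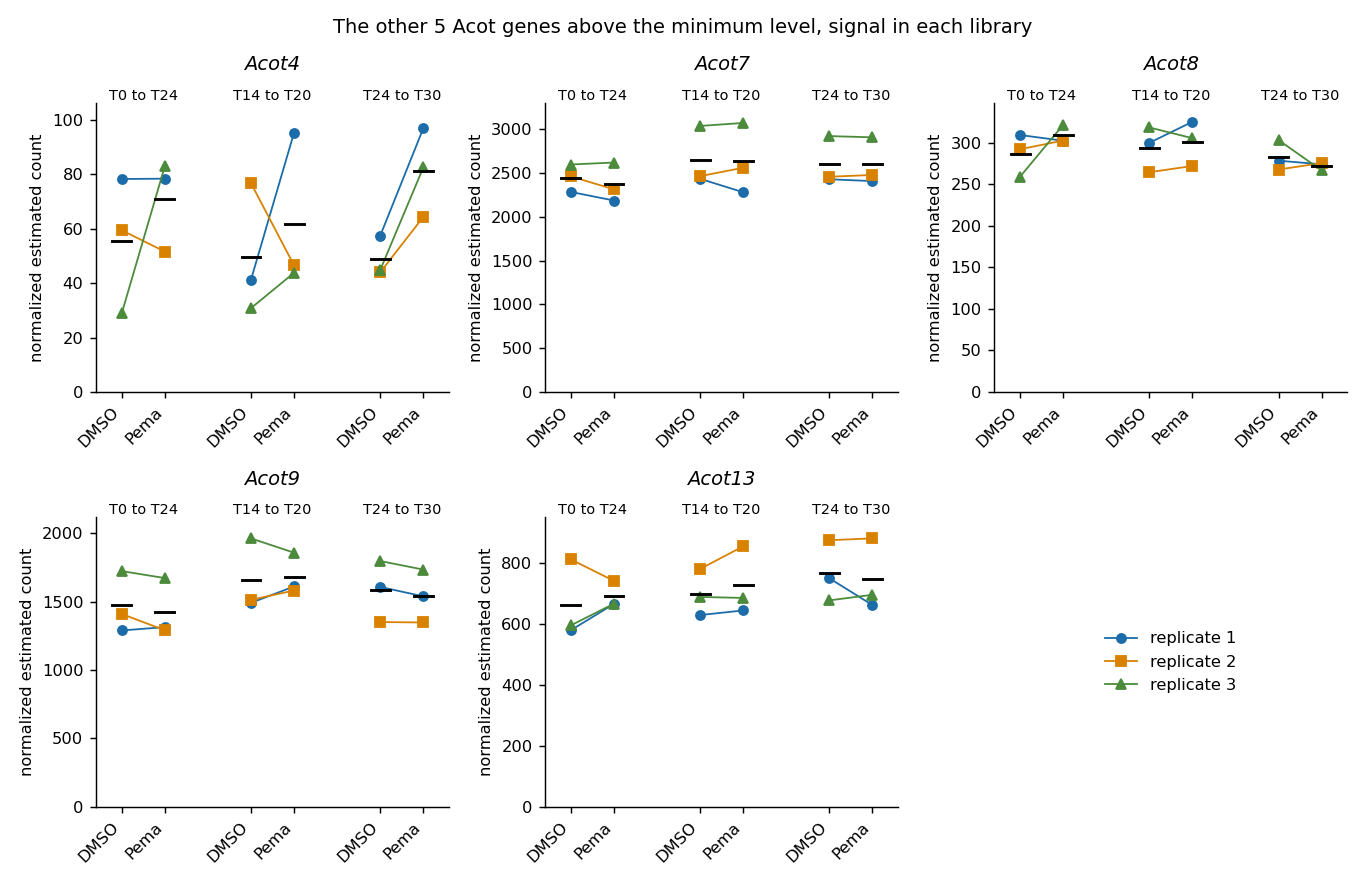
Normalized estimated count (y axes, each from 0) of Acot4, Acot7, Acot8, Acot9 and Acot13 in each of the 18 libraries, lines joining pairs of the same replicate number and black bars at the group means. Acot4 spreads from 29.0 to 96.9 with crossing lines, whereas the lines of the 4 other genes stay close to level.

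Divided by transcript length, the family spanned a wide range of levels in the cells. In DMSO libraries the median signal per kilobase was 1637 for Acot7 (lowest 1518, highest 2019), 1058 for Acot1 (672 to 1364), 955 for Acot13 (803 to 1213) and 863 for Acot9 (735 to 1120). Acot7 stood above the others without overlap, and the ranges of Acot1, Acot13 and Acot9 overlapped. Acot8 followed at 254 (225 to 276), Acot2 at 113 (81.9 to 156), Acot4 at 7.23 (4.67 to 12.6) and Acot11 at 0.639 (0 to 3.24), neighbours that did not overlap. In Pema libraries Acot1 reached a median of 1775 (1224 to 2099), within the range of Acot7 (1453 to 2042). Acot2 reached 211 (144 to 285), overlapping Acot8 (232 to 282). Lengths are those of the principal GENCODE M21 transcripts, from 721 bases for Acot13 to 6203 for Acot4. Full lengths were used, without a correction for fragment size. The order of genes and the lack of overlap could change with another choice of length, above all for a short transcript such as that of Acot13. Levels per kilobase were compared over the 9 libraries of a treatment, across the separately normalized tables.

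Levels also followed the replicate number. Acot1 in replicate 3 was lower than in replicate 1 by a log2 difference of -0.51 and replicate 2 differed from 1 by 0.05 (limma F test, adjusted p = 1.5e-07). For Acot2 the differences were -0.74 and -0.28 (adjusted p = 9.8e-07). Acot7 and Acot9 went the other way, with replicate 3 above replicate 1 by 0.29 and 0.28 (adjusted p = 1.0e-05 and 2.7e-05), and Acot13 was 0.33 higher in replicate 2 than in replicate 1 (adjusted p = 5.9e-05). For Acot4 (adjusted p = 0.113) and Acot8 (0.359) the test did not pass. The test thus called 5 of 7 members, beside 67.7% of all genes (8981 of 13258), so a member called here is no exception. Marker genes moved with the replicate number as well: mean Apoe was 867, 442 and 194 in replicates 1, 2 and 3, mean Ttr 3988, 3584 and 1777, mean Alb 6657, 3784 and 3263, and mean Hnf4a 7246, 7225 and 8834. Hepatocyte marker sums were 60790 to 67566, 60530 to 75729 and 53754 to 67779, cholangiocyte sums 51685 to 60385, 69759 to 76864 and 49643 to 54124, and fibroblast sums 26125 to 27977, 24988 to 27624 and 31673 to 34124. Trf, Spp1 and Vim made up most of these sums. Mean Trf was 44230, 49965 and 42909, mean Spp1 36507, 54626 and 32247, and mean Vim 26548, 26222 and 32494. Mean Krt7 (4302, 4380 and 5017) and Krt19 (9588, 8884 and 11132) were highest in replicate 3, unlike the cholangiocyte sums. Mean Sox9 (4288, 4564 and 2974) and Cftr (20.1, 13.9 and 11.9) were lowest there. The sums thus do not measure shares of cell types. The part of the markers in the Acot levels was not tested.

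**Figure D5:**
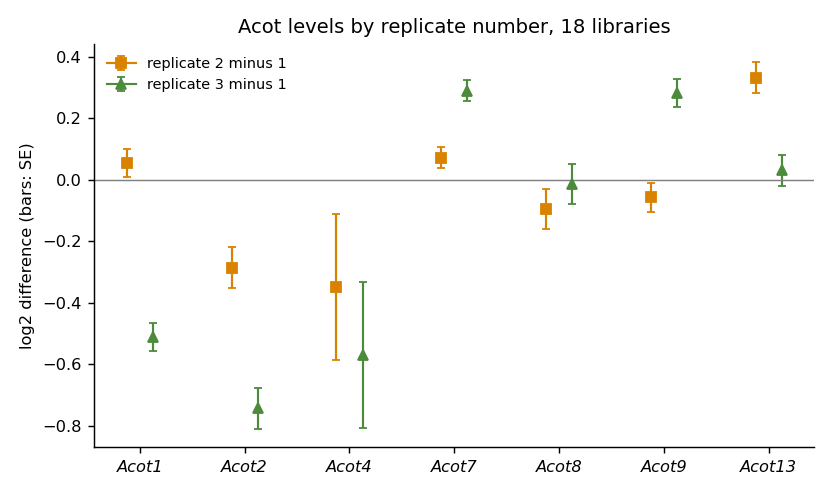
Log2 difference (y axis, bars: SE) of replicates 2 and 3 from replicate 1 for the 7 tested Acot genes, fitted over 18 libraries with the 6 groups as terms. Replicate 3 lies at -0.51 for Acot1 and -0.74 for Acot2, and at 0.29 for Acot7 and 0.28 for Acot9.

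Since Acot1 and Acot2 rose together, the DNA before their start sites was compared. RefSeq promoter windows (GRCm38.p6, 250 bases before to 50 after the start) were found for 8 of the 9 genes, and the 250 upstream bases are shown for the cluster genes that were tested.
Acot1, chr12:84009252-84009501, plus strand: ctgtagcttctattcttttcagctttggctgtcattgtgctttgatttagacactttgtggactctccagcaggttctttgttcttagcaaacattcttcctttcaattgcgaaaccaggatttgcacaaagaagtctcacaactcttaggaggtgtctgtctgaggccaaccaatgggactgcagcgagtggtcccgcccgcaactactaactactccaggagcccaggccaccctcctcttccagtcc
Acot2, chr12:83987611-83987860, plus strand: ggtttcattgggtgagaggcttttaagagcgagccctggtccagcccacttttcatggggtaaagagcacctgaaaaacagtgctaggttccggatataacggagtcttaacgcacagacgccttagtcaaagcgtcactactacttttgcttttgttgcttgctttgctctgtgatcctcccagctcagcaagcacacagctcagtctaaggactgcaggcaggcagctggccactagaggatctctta
Acot4, chr12:84038129-84038378, plus strand: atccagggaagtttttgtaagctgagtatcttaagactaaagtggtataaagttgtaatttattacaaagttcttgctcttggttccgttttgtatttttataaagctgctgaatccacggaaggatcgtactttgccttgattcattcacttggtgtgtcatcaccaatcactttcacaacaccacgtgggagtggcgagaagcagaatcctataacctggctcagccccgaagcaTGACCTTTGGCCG
The upstream sequences of Acot1 and Acot2 shared 0 runs of 12 bases, unlike their coding sequences. PPARα binds with RXR to direct repeats of AGGTCA spaced by 1 base. Both strands of each 300-base window were searched for AGGTCANAGGTCA, which occurred exactly in 13 of 32851 promoters (0.0396%) and in no member. With up to 2 mismatches it occurred in 3.86% of promoters, and among the members in Acot4 alone, on the minus strand in the last 13 bases before the start (capitals). With up to 3 mismatches it occurred in 24.6% of promoters, now including Acot2, Acot3 and Acot11, while the nearest match in Acot1 had 4. The single motif AGGTCA, which lies inside the longer one, was in 16.3% of promoters and in those of Acot3 and Acot4, and CACGTG, the E-box of the clock proteins, in 7.15% and in those of Acot4 and Acot11. These are matches of letters within the 300-base windows, so a site farther from the start would be missed. Binding was not measured.

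Other genes that make, bind, transfer or break down acyl-CoA or CoA were taken as 6 lists of 47 genes, 37 of which could be tested. Over all windows 2 of the 37 were called higher and 0 lower, beside 0.181% and 0.00754% of all genes. Both are carnitine acyltransferases, where 2 of 6 tested were called and 5 of 6 were positive. Cpt1a, which commits long-chain fatty acids to mitochondrial entry, rose by 0.31 ± 0.02 (log2, SE, limma adjusted p = 3.5e-06) and was also the 1 gene of the lists called in a window (T0 to T24, 0.37 ± 0.03, adjusted p = 0.013). Crot, its peroxisomal relative for medium-chain acyl groups, rose by 0.22 ± 0.03 (adjusted p = 0.0013). Without the block, neither passed (adjusted p = 0.135 and 0.99996). None of the 4 other thioesterases tested (Acot6, Them4, Ppt1 and Ppt2), 10 acyl-CoA synthetases, 5 acyl-CoA binding proteins, 7 genes of CoA synthesis or 5 of CoA degradation were called. The closest by p in those lists were Slc27a3, a fatty acid transport protein with synthetase activity (-0.34 ± 0.15, adjusted p = 0.77), Dbi, the acyl-CoA binding protein (0.10 ± 0.03, adjusted p = 0.42), Pank4 (0.06 ± 0.04, adjusted p = 0.89) and Vnn3 (-0.05 ± 0.04, adjusted p = 0.89). The median over the 37 genes was 0.01.

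Genes whose levels ran most like those of Acot1 and Acot2 over the 18 libraries were listed by Pearson's r of log2(value + 1), with each table centred on its mean, among 13040 genes. For Acot1 they were Hsdl2 (0.983), a peroxisomal dehydrogenase-like protein, Acot2 (0.957), Cpt1a (0.921), Acadvl (0.90), the very-long-chain acyl-CoA dehydrogenase, and Aldh9a1 (0.897). For Acot2 they included Creb3l3 (0.966), a liver transcription factor, Acot1 (0.957), Hsdl2 (0.952) and Cpt1a (0.920). The libraries share both the drug and the replicate number, so these values are a description. Creb3l3 had a drug effect of 1.26 and a difference of -1.15 between replicates 3 and 1 (log2), directions also seen in Acot1 and Acot2. Aldh9a1, at 0.08 (limma adjusted p = 0.35), was the 1 gene of those just listed that the fit over all windows did not call. These genes were picked by r over the same libraries, so their shared directions and calls follow largely from that choice. They are no separate evidence.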

How the data were processed

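Poly(A) RNA of 18 AML12 libraries was sequenced as dUTP-stranded libraries, per the labels' protocols. Groups and replicate numbers come from the sample titles. Values are normalized signal as deposited, 1 table per window, each scaled by the authors on its own. The column names end as salmon's output does. The build, annotation and salmon version were not given in the sources used here. Of the values above 0 and up to 8 reads, 56.7% to 74.9% per library were whole multiples of 1 read (tolerance 0.05). The size of 1 read was estimated in each library. Whole reads were thus not recovered and no count test was run. Symbols matched 35181 of 35551 IDs, and 370 kept their ID.

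Genes with a mean of at least 10 were fitted as log2(value + 1) with limma 3.58.1 in R 4.3.3 (eBayes with a variance trend, 95% intervals, adjusted p under 0.05), with the replicate number as a block, because the members were given with a rule that pairs by it. The titles give only the number. Once group means were removed, libraries correlated at 0.314 to 0.637 in the 9 pairs of the same number and at -0.437 to -0.11 between the 18 pairs of different numbers. Removing the mean of 3 libraries makes the values for different numbers negative on balance where those for the same number are positive. The 2 ranges are thus not separate evidence on the pairing. The scale of log2(value + 1) understates changes of low genes. The fits were tested on simulated data: of 50 genes changed 1.5-fold, the paired fit called 80% in each window (of 13402, 13318 and 13307 genes fitted) and 90% over all windows (of 13342), with 11, 6 and 8 false calls in the windows and 1 over all. Without the block the shares were 6%, 20%, 26% and 76%, with 0 false calls. Each simulated gene had the average spread of genes at its level, as the variance trend assumes. Differences in spread between genes of like level were not simulated, so these shares and false calls may be too favourable for the real data.

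The members and lists were chosen with earlier results of these data known. Named genes are every member, each list's called genes or otherwise its gene of smallest p over all windows, and the 5 genes most like Acot1 and Acot2 by r. Creb3l3 is described further because of that r. A gene that this rule takes is not reported here. Transcripts were those of GENCODE M21 (GRCm38), and promoters those of RefSeq (GRCm38.p6). Alternatives were another pseudocount, filter, scaling or variance model, no block, a shared fit, averaged windows and leaving out each replicate. Leaving out each window was added after seeing the data.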

Additional observations from a re-analysis of the deposited data

How the results depend on the processing

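Without the replicate block 0 members were called in each window and over all windows (main counts 2 in T0 to T24, 1 in T14 to T20, 1 in T24 to T30 and 2 over all windows). The summed Acot1 and Acot2 difference was then still 0.74 but did not pass (limma adjusted p = 0.073, against 2.5e-07), and the Acot2 to Acot1 ratio shift of 0.099 had an exact permutation p of 0.24. With no filter on low values, and with no variance trend, 0 members were called in each of the 3 windows, and the cause was not tested. In T14 to T20 the count was 2 with a minimum mean of 50, with robust eBayes and when all 18 libraries shared 1 fit, and in T24 to T30 it was 2 in that shared fit. Leaving out each replicate gave 1 to 2 calls in T0 to T24 (Acot2 had adjusted p = 0.107 without replicate 2) and 0 to 1 in T24 to T30 (Acot1 had adjusted p = 0.106 without replicate 2). Members called by replicate number were 2 to 5, with 2 without replicate 3. The ratio shift was 0.079 to 0.113 without 1 replicate, 0.087 without T0 to T24 and 0.081 without T14 to T20. Fewer libraries remain in these fits.

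Over all windows Acot1 and Acot2 passed in 15 of 16 settings each, all but no replicate block, with log2 values of 0.68 to 0.77 and 0.77 to 0.90. Within windows Acot1 passed in 10, 10 and 9 of 13 settings and Acot2 in 9, 3 and 1. Both were positive in every setting run, and rescaling moved the median of all genes by under 0.01. Acot7, Acot8, Acot9, Acot13 and Acot4 passed in 0 settings. Signs turned in some fits without 1 replicate, given as the range over the 3: Acot4 in T0 to T24 (-0.099 to 0.745), in T14 to T20 Acot4 (-0.108 to 0.841), Acot7 (-0.039 to 0.035), Acot8 (-0.0095 to 0.078) and Acot9 (-0.0078 to 0.087), in T24 to T30 Acot7 (-0.0098 to 0.0025), Acot13 (-0.085 to 0.024) and Acot8 (-0.104 to 0.0089), and over all windows Acot9 (-0.040 to 0.0012). Without T0 to T24 the value of Acot8 over all windows was -0.012. All genes called numbered 0 to 14 in T0 to T24, 0 to 9 in T14 to T20, 0 to 8 in T24 to T30 and 2 to 26 over all windows, against 7, 5, 5 and 25. Depth before scaling is unknown, and Acot4, Acot3 and Acot11 are too low for small changes to show.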
